A study of Mus musculus with 5 samples.

Results

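The genes described here repair broken or cross-linked DNA by homologous recombination, act in the Fanconi anaemia pathway, or carry the DNA damage checkpoint signal. They were a list of 43 genes chosen by name, with earlier results of these data known. All 43 matched probe sets of the array that carry 1 gene symbol, 89 probe sets of 45037 in all, or 43 genes of 18193. They comprised 19 recombination genes, 10 Fanconi genes, 13 checkpoint genes and Msh6, a mismatch recognition gene. RNA came from KLS cells, which were sorted for c-Kit and Sca-1 and against lineage markers, and was measured on Affymetrix mouse arrays. KLS cells are a marrow fraction that holds haematopoietic stem cells and early multipotent progenitors. The Rb family deficient group (3 arrays) had the genotype Rb -/- p130 -/- p107-/-, and the group titled wild type (2 arrays) was Rb +/+ p130 +/+ p107+/-, so these controls carried 1 lost copy of p107. The growth text, which is the same for both groups, says that recombination was induced with the Mx1Cre system at 6 weeks of age and that cells were sorted 2 months later. The labels do not say whether the control mice carried Mx1-Cre, so effects of Cre or its induction and of the gene loss cannot be told apart here. Mx1-Cre is driven by an interferon-responsive promoter, and its activity is not limited to blood-forming cells. Of 6 arrays hybridised, the study set 1 aside because its background was high and its control probe sets were anomalous. No label tells whether the arrays are of separate animals or of pools, so the p-values cover the spread among these 5 arrays alone, and that spread may be technical.

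In homologous recombination, nucleases resect a DNA break, the BRCA1, PALB2 and BRCA2 proteins act on the resected ends, and the break is copied from an intact template. The Fanconi core complex attaches ubiquitin to the FANCD2-FANCI pair at stalled or cross-linked forks, and ATM and ATR signal through CHEK2 and CHEK1 to hold the cell cycle. RB, p107 and p130 restrain E2F transcription factors, whose targets include genes of replication and repair that are used in S phase, and inherited loss of Fanconi genes leads to failure of the bone marrow.

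The labels were checked on the 3 inactivated genes at their brightest probe sets, where levels are log2 of the deposited intensity. Rbl1, which encodes p107, read 5.15, 4.25 and 4.73 in deficient arrays, against 8.33 and 7.16 in wild-type arrays. Rb1 read 8.93, 7.77 and 8.46 in deficient arrays, against 8.84 and 8.65 in wild-type arrays, and Rbl2, which encodes p130, read 7.90, 7.55 and 8.07 against 8.62 and 8.0. Rbl1 fell (log2 difference -3.04, limma adjusted p = 0.0266), while the groups overlapped for Rb1 and Rbl2. The sources used here do not give the probes' places relative to the floxed exons, and probes elsewhere in a gene would not test its loss. The median log2 intensity lay between 4.71 and 4.74 on the 5 arrays. Of 4 stem and progenitor markers measured, 0 passed in limma and all overlapped between the groups, with a median difference of -0.15. Kit, which the sort used, differed by 0.06, Cd34 by 0.03, Flt3 by -0.32 and Slamf1 by -0.33. The neutrophil markers differed widely: all 9 measured fell, and their summed level was 10.36 to 11.19 in deficient arrays, against 15.60 to 15.89 in wild-type arrays (log2 of the sum). Of all genes, 1.41% fell in limma at an adjusted p under 0.05, and 48.1% had higher means. These shares also apply to the marker lists that follow. For 9 B and plasma cell markers, of which 3 fell at an adjusted p under 0.05, the summed level was 10.21 to 10.32 in deficient arrays, against 13.96 to 14.82 in wild-type arrays. All 9 means were lower, and for 7 markers all deficient arrays lay below both wild-type arrays, as for 18.6% of all genes. Igha, an antibody heavy chain gene, read 5.45, 5.79 and 5.26 in deficient arrays, against 13.24 and 13.51 in wild-type arrays. For 10 macrophage and dendritic markers, of which 1 fell, the summed level was 11.21 to 11.41 in deficient arrays, against 12.48 to 12.93 in wild-type arrays. Of these 10, 9 means were lower, and for 8 all deficient arrays lay below both wild-type arrays, as for 18.6% of all genes. For 9 T and NK cell markers the summed level was 11.23 to 11.56 in deficient arrays, against 10.71 to 11.29 in wild-type arrays. Nkg7, the brightest of the T and NK cell markers, made up most of that sum. Of these 9 T and NK cell markers, 7 means were lower, the median difference was -1.02 and 2 fell (Klrd1, with a log2 difference of -2.36, and Cd247, with -1.43). For 8 erythroid markers, of which 0 passed in limma, the sum was 12.82 to 13.88 in deficient arrays, against 13.71 to 13.76 in wild-type arrays. Below the array median on all 5 arrays were 1 of the 9 B and plasma cell markers (Pax5), 1 of the 9 T and NK cell markers (Il2rb), 1 of the 10 macrophage and dendritic markers (C1qb) and 2 of the 8 erythroid markers (Hba-a1 and Alas2). Most markers of other cell types thus read at or above that median on at least 1 array. Whether such a value is signal over background was not tested. The part that other cells in the sort play in the results below was not tested. In RNA from a sorted population, more cells of a kind and more RNA per cell cannot be told apart.

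Promoters are shown for 5 genes because loss of the pocket proteins bears on E2F, whose binding motif was searched in them. They comprise Brca1 and Brca2, which passed the test below, and 3 genes picked because they hold an E2F match: the checkpoint genes Chek2 and Mdc1, with all deficient arrays above both wild-type arrays, and Bard1, which was not higher. Among the other checkpoint genes with separate arrays, Topbp1 held a match and Atm, Atr, Atrip, Hus1 and Chek1 held none, and Rad50, which also passed, had no entry matched in the promoter table. Each runs from 250 bases before to 50 bases after the annotated start in RefSeq (GRCm38.p6), 5′ to 3′ on the gene's strand: Brca1 at chr11:101551906-101552205 on the minus strand, Brca2 at chr5:150522371-150522670 on the plus strand, Chek2 at chr5:110839733-110840032 on the plus strand, Mdc1 at chr17:35841248-35841547 on the plus strand and Bard1 at chr1:71102923-71103222 on the minus strand. Capitals mark matches, on either strand, to 4 forms of the E2F motif (TTTCCCGC, TTTCGCGC, TTTGCCGC, TTTGGCGC), to the CHR element (TTTGAA) of cell cycle genes, and to the CCAAT box.
Brca1: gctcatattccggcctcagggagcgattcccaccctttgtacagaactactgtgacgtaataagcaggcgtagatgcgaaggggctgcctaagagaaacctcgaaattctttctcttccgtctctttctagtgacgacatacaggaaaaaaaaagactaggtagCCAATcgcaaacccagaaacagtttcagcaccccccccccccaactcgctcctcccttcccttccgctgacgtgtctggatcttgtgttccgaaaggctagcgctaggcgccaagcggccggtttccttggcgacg
Brca2: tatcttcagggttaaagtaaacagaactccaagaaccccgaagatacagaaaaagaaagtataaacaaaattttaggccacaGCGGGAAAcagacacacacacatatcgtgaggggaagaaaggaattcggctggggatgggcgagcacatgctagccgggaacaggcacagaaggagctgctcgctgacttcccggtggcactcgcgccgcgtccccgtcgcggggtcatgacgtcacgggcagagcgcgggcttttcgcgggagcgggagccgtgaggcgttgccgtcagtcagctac
Chek2: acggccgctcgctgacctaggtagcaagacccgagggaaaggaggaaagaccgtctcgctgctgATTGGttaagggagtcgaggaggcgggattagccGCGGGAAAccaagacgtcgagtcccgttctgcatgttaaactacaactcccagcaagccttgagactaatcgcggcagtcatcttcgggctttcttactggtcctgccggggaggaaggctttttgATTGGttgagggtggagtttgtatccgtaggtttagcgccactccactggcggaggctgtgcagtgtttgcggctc
Mdc1: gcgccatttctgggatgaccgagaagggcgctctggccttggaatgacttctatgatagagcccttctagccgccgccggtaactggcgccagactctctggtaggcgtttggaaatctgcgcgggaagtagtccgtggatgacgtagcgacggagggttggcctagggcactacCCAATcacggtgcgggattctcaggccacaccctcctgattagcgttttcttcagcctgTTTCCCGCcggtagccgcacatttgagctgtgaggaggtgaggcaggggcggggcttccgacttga
Bard1: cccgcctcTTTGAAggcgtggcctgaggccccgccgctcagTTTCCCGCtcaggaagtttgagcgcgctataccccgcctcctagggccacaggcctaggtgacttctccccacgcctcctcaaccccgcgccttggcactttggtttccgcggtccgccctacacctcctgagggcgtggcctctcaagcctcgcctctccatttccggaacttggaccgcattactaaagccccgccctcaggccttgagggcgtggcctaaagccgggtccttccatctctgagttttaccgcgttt

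Brca2 held an E2F match (GCGGGAAA, the reverse complement of the first form) that begins 168 bases before the start, and Chek2 held the same match 152 bases before it, with 2 CCAAT boxes. Mdc1 held TTTCCCGC 16 bases before its start and Bard1 held it 209 bases before, with a CHR match 242 bases before. Brca1 held a CCAAT box and no match to the E2F or CHR forms in this window. Of the 43 genes, 36 matched the RefSeq promoter table, with 39 promoters. An E2F match was present in 9 of these 39 promoters (23.1%), those of Brca2, Bard1, Rad51c (both of its promoters), Fancg, Chek2, Mdc1, Topbp1 and Msh6. The share was 3.20% of 18010 promoters of genes on the array and 2.26% of all 32851 promoters. A CHR match was present in 3 of the 39 (7.69%), those of Bard1, Eme1 and Hus1, against 13.4% of promoters of genes on the array. A CCAAT box was present in 21 of the 39 (53.8%), against 37.4%. Overlapping matches of one motif were counted once, the 3 motifs do not contain one another, and mean GC content was 59.7% in these promoters and 58.5% in those of genes on the array. The 8 genes with an E2F match had a median log2 difference (deficient minus wild type) of 0.51, with a range from -0.16 to 1.00, and the 28 without one had a median of 0.48, with a range from -0.29 to 1.05. A match is a run of letters in this window and not evidence of binding.

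RNA of these genes was mostly higher in the deficient cells, with log2 differences that ran from -0.29 to 1.05. At the brightest probe set of each gene, 38 of 43 means were higher and 5 were lower, against 48.1% of all genes higher, and the median log2 difference was 0.47, where it was -0.01 over all 18193 genes. In limma's fit with 1 probe set per gene, 3 genes rose (Brca1, Brca2 and Rad50), 0 fell and 40 did not pass a Benjamini-Hochberg adjusted p of 0.05. That is 6.98% of the 43, against 0.83% of all genes called higher and 1.41% called lower. The list was chosen with earlier results of these data known, so the shares in this paragraph describe it and do not test it. All 43 brightest probe sets lay above the median of all probe sets, and among the 11626 genes above it 1.3% were called higher. At an unadjusted p under 0.05, 21 were higher and 0 were lower, against 8.79% and 9.86% of all genes. All 3 deficient arrays lay above both wild-type arrays for 26 of the 43 genes (60.5%), against 16.5% of all genes, and below them for 0, against 18.6%. When all 45037 probe sets were fitted, 0 of the 89 passed (limma, adjusted p under 0.05), against 0.164% of all called higher and 0.326% called lower. Without adjustment, 29 of the 89 (32.6%) were higher and 2 (2.25%) were lower at p under 0.05 in the same limma fit. Of all 45037 probe sets, 7.28% were higher and 6.82% were lower at that threshold. All deficient arrays lay above both wild-type arrays on 38 of the 89, against 15.4% of all probe sets, and below them on 4, against 15.2%. In that fit 6 of the 89 probe sets had an adjusted p under 0.1, all of them higher. The share of all probe sets under 0.1 was not counted, so this number has no background beside it.

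**Figure D1:**
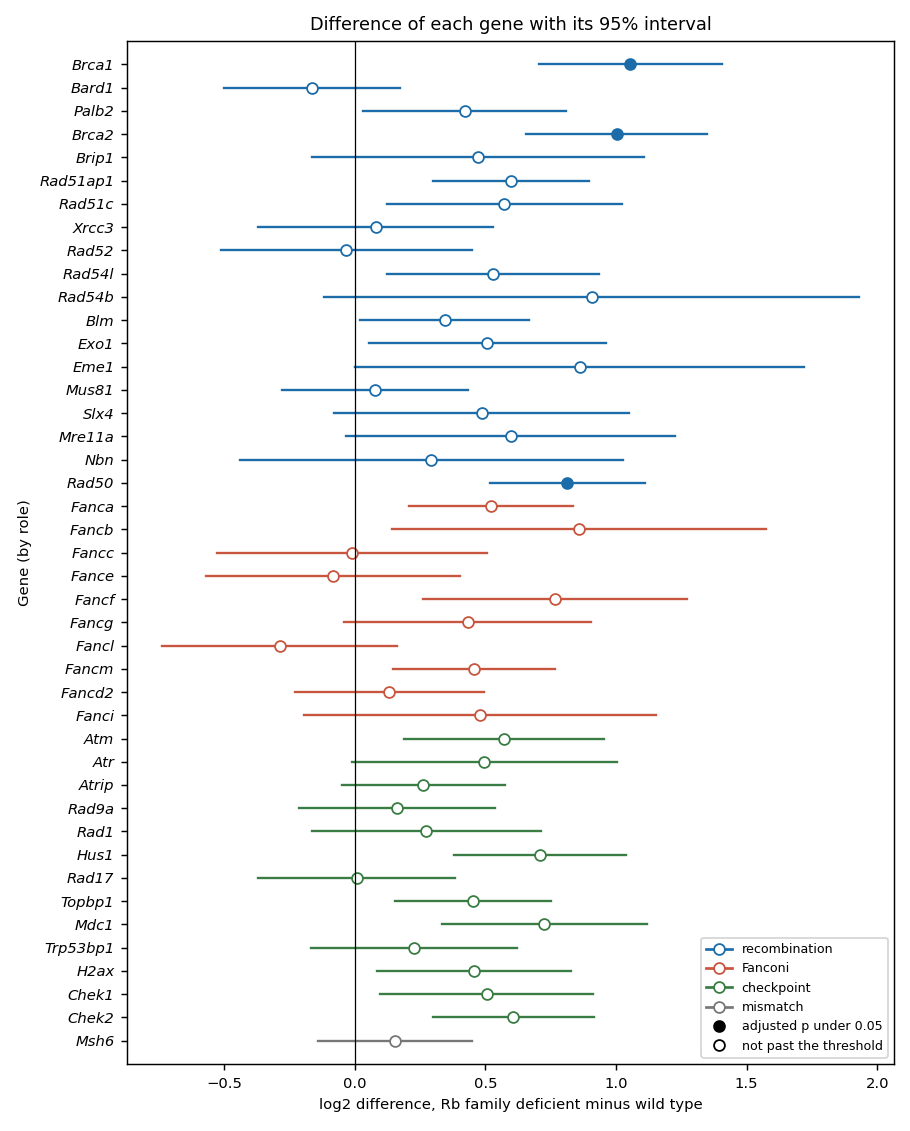
Log2 difference (deficient minus wild type) of each of the 43 genes at its brightest probe set, ordered by role, with the 95% interval from limma's fit with 1 probe set per gene; filled points passed an adjusted p of 0.05. The filled points are Brca1, Brca2 and Rad50, and 22 of the 43 intervals include 0.

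The 2 wild-type arrays did not read alike on these genes. Wild type 1 was below wild type 2 for 34 of the 43 genes and was the lowest of all 5 arrays for 28, while over all genes it was below wild type 2 for 51.4%. The gap was over 0.5 log2 units for 9 genes and reached 1.20 for Rad54b, 1.06 for Nbn and 1.01 for Fancb. Relative to the wild-type mean, the median over the 43 genes was 0.39, 0.40 and 0.43 in the deficient arrays, against -0.13 and 0.13 in the wild-type arrays. The wild-type values mirror each other around 0 because the mean of those same arrays was subtracted. The median difference was 0.33 without wild type 1 and 0.55 without wild type 2. Leaving out wild type 1 or wild type 2 leaves 1 wild-type array, which has no spread of its own, so only effect sizes are given for those fits. Without any 1 of the deficient arrays, 0 genes passed in limma with 1 probe set per gene, Brca1, Brca2 and Rad50 included. There the spread was estimated from fewer arrays. Over the 5 fits with 1 array left out, the difference ran from 0.95 to 1.12 for Brca1, from 0.81 to 1.20 for Brca2 and from 0.74 to 0.86 for Rad50.

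**Figure D2:**
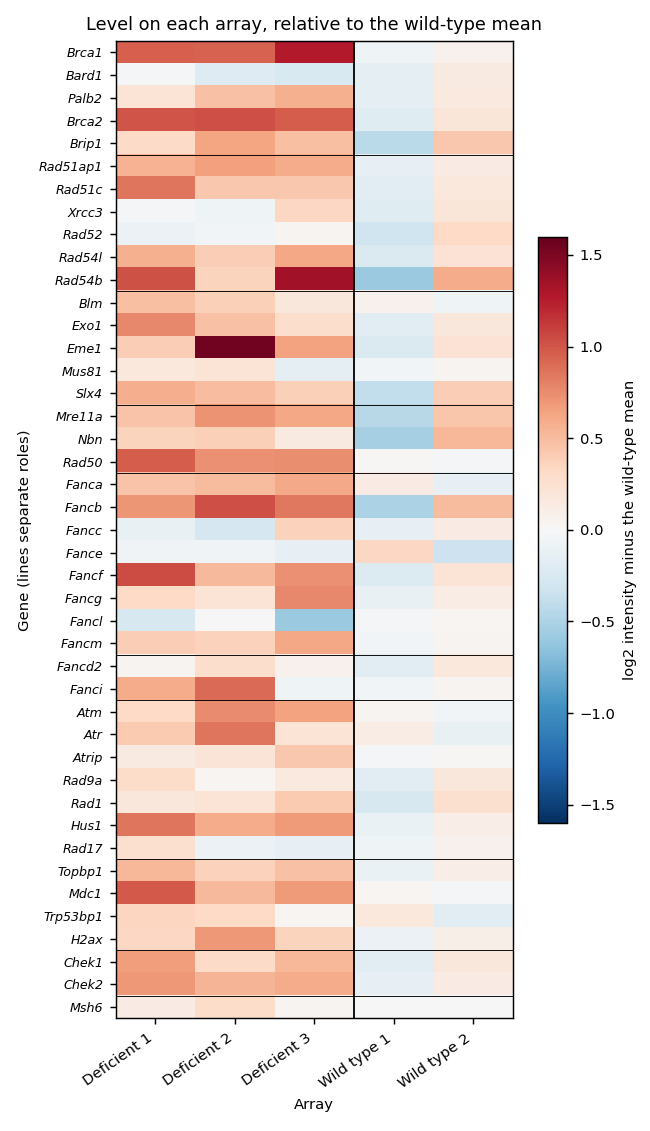
Log2 intensity on each array minus the wild-type mean of the same gene, for the 43 genes in order of role, with the 3 deficient arrays left of the 2 wild-type arrays and black lines between roles. Red cells are above the wild-type mean and blue cells are below it; wild type 1 was below wild type 2 for 34 genes.

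At the brightest probe sets, Brca1 and Brca2 had the largest differences of the recombination genes. Brca1 (probe set 1424629_at), a tumour suppressor whose protein promotes resection and recruits PALB2, read 9.62, 9.61 and 9.94 in deficient arrays, against 8.60 and 8.73 in wild-type arrays. The arrays of the groups were over 0.8 log2 units apart, and the difference was 1.05 (SE 0.14), or 2.08-fold (limma, adjusted p = 0.0296 over genes and 0.0534 over all probe sets). Brca2 (1419076_a_at), a tumour suppressor that acts with PALB2 in recombination, read 10.37, 10.40 and 10.33 in deficient arrays, against 9.17 and 9.55 in wild-type arrays. Its difference was 1.00 (SE 0.14), or 2.00-fold (limma, adjusted p = 0.0331 over genes and 0.0581 over all probe sets). Palb2, which joins BRCA1 to BRCA2, differed by 0.42 (95% interval 0.03 to 0.81, limma adjusted p = 0.234), and all its deficient arrays lay above both wild-type arrays. Brip1, a helicase that binds BRCA1, differed by 0.47 (interval -0.16 to 1.11), and its groups overlapped. The difference of Brip1 was 0.04 without wild type 1 and 0.90 without wild type 2. Bard1, the obligate partner of BRCA1 in its ubiquitin ligase, was not among them and read 4.99, 4.81 and 4.77 in deficient arrays, against 4.87 and 5.16 in wild-type arrays. Its difference was -0.16 (interval -0.50 to 0.18) on its only probe set, which lay close to the array medians, where RMA compresses differences.

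Rad50 (1422630_at) was the other gene that passed. It encodes the ATPase of the complex with MRE11 and NBN that senses breaks and activates ATM, and read 10.16, 9.93 and 9.95 in deficient arrays, against 9.22 and 9.18 in wild-type arrays. The difference was 0.81 (SE 0.12), or 1.76-fold (limma, adjusted p = 0.0360 over genes and 0.0615 over all probe sets). Mre11a, the nuclease of the complex, read 8.45, 8.71 and 8.61 in deficient arrays, against 7.55 and 8.43 in wild-type arrays (difference 0.60, interval -0.03 to 1.23). Nbn read 9.21, 9.23 and 9.0 in deficient arrays, against 8.33 and 9.39 in wild-type arrays (difference 0.29, interval -0.44 to 1.03). For Mre11a and Nbn the gap between the 2 wild-type arrays was larger than the difference between the group means, and without wild type 1 the differences were 0.16 and -0.24.

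Among the 6 accessory genes of recombination, 5 means were higher and 0 passed in limma. Of all genes, 48.1% had higher means and 0.83% were called higher. Rad51ap1, a recombination accessory gene, read 10.38, 10.48 and 10.42 in deficient arrays, against 9.71 and 9.96 in wild-type arrays, a difference of 0.60 (SE 0.12, limma adjusted p = 0.0705). Rad51c differed by 0.57 (interval 0.12 to 1.02) and the DNA motor gene Rad54l by 0.53 (interval 0.12 to 0.93), each with separate groups. Rad54b, a relative of Rad54l, had the widest interval of all 43 genes (difference 0.91, interval -0.12 to 1.93): it read 6.96, 6.29 and 7.28 in deficient arrays, against 5.34 and 6.54 in wild-type arrays. It was 0.31 without wild type 1 and 1.51 without wild type 2. Xrcc3 differed by 0.08 (interval -0.37 to 0.53) and Rad52, a strand annealing gene, by -0.03 (interval -0.51 to 0.45).

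Genes of resection and of junction processing had 5 of 5 means higher and 0 past the threshold in limma. Of all genes, 48.1% had higher means and 0.83% were called higher. Exo1, an exonuclease that extends resection, read 9.08, 8.79 and 8.60 in deficient arrays, against 8.14 and 8.49 in wild-type arrays, a difference of 0.51 (SE 0.19, limma adjusted p = 0.223). Its closest arrays were 0.1 apart. Blm, the RecQ helicase lost in Bloom syndrome, differed by 0.35 (interval 0.02 to 0.67). Eme1 and Mus81 encode the subunits of a single structure-selective nuclease. Eme1 differed by 0.86 (interval 0.00 to 1.72) and read highest in deficient 2 (8.81), while Mus81 differed by 0.08 (interval -0.28 to 0.44). Their intervals overlap, and Eme1 and Mus81 were not tested against each other. The nuclease scaffold gene Slx4 differed by 0.49 (interval -0.08 to 1.05), and by 0.10 without wild type 1 and 0.87 without wild type 2. The difference of Eme1 was 0.52 without deficient 2.

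**Figure D3:**
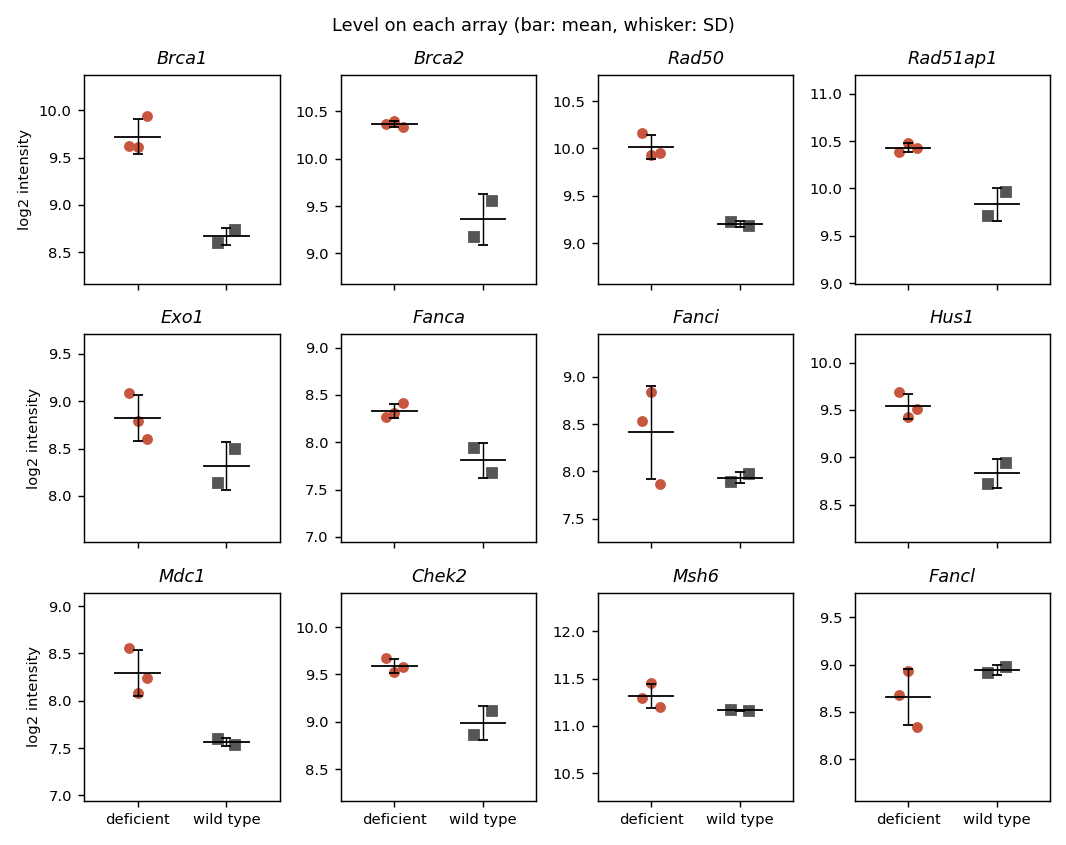
Log2 intensity on each array for 12 genes, with deficient arrays (circles) left of wild-type arrays (squares), the bar at the mean and the whisker at 1 SD; each panel spans the same height. The groups are separate in all panels except Fanci and Fancl.

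Not all Fanconi genes had higher means, and the intervals of those with lower means include 0. Of the 8 core and anchor genes, 5 had all deficient arrays above both wild-type arrays (Fanca, Fancb, Fancf, Fancg and Fancm), against 16.5% of all genes. The other 3 had lower means (Fancc, Fance and Fancl), against 48.1% of all genes with higher means. In limma 0 of the 8 passed, and 4 were higher at p under 0.05 without adjustment. Of all genes, 0.83% were called higher, and 8.79% were higher without adjustment. Fanca read 8.26, 8.31 and 8.41 in deficient arrays, against 7.94 and 7.67 in wild-type arrays, a difference of 0.52 (SE 0.13, limma adjusted p = 0.105). Fancf, an adaptor within the core complex, differed by 0.77 (interval 0.26 to 1.27) and Fancm, the DNA translocase that anchors the complex, by 0.46 (interval 0.15 to 0.77). Fancb read 7.31, 7.63 and 7.44 in deficient arrays, against 6.10 and 7.11 in wild-type arrays. Its difference was 0.86 (interval 0.14 to 1.57), and it was 1.36 without wild type 2 and 0.35 without wild type 1. Fancl, the ubiquitin ligase subunit of the core, read 8.68, 8.94 and 8.35 in deficient arrays, against 8.91 and 8.98 in wild-type arrays (difference -0.29, interval -0.74 to 0.16), the lowest difference of the 43 genes. Fancg differed by 0.43 (interval -0.04 to 0.91), Fancc by -0.01 (interval -0.53 to 0.51) and Fance by -0.08 (interval -0.57 to 0.40).

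The pair that the core complex modifies overlapped between the groups. Fanci read 8.53, 8.83 and 7.87 in deficient arrays, against 7.89 and 7.98 in wild-type arrays, with deficient 3 below both wild-type arrays. Its difference was 0.48 (SE 0.28, limma adjusted p = 0.442), or 0.75 without deficient 3 and 0.27 without deficient 2, and Fancd2 differed by 0.13 (interval -0.23 to 0.50).

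All 13 checkpoint genes had higher means in deficient cells, 9 had separate groups and 0 passed in limma, with 7 at an unadjusted p under 0.05. Of all genes, 48.1% had higher means and 16.5% had all deficient arrays above both wild-type arrays. In limma 0.83% of all genes were called higher, and 8.79% were higher at an unadjusted p under 0.05. Among the sensors, Hus1, part of the ring-shaped clamp that forms with RAD9A and RAD1 on damaged DNA, read 9.69, 9.42 and 9.51 in deficient arrays, against 8.72 and 8.94 in wild-type arrays. Its difference was 0.71 (SE 0.14, limma adjusted p = 0.0619). The other subunits differed less, Rad1 by 0.27 (interval -0.16 to 0.71, and 0.02 without wild type 1) and Rad9a by 0.16 (interval -0.21 to 0.54), and the clamp loader gene Rad17 by 0.01 (interval -0.37 to 0.39). The kinase gene Atm differed by 0.57 (interval 0.19 to 0.95) and Atr by 0.50 (interval -0.01 to 1.00), both with separate groups. Atrip, the partner through which ATR is recruited, differed by 0.26 (interval -0.05 to 0.57).

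Among the mediators, Mdc1, which binds phosphorylated histone H2AX at breaks, read 8.55, 8.08 and 8.24 in deficient arrays, against 7.60 and 7.53 in wild-type arrays. Its difference was 0.73 (SE 0.16, limma adjusted p = 0.0847). H2ax itself differed by 0.46 (interval 0.09 to 0.83) and Topbp1, an activator of ATR, by 0.45 (interval 0.16 to 0.75), each with separate groups. Trp53bp1, which limits resection and favours end joining, differed by 0.23 (interval -0.17 to 0.62), and its groups overlapped.

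Both effector kinase genes had all deficient arrays above both wild-type arrays, as did 16.5% of all genes. Chek2, which acts downstream of ATM, read 9.67, 9.52 and 9.58 in deficient arrays, against 8.86 and 9.11 in wild-type arrays, a difference of 0.61 (SE 0.13, limma adjusted p = 0.0744). Chek1, which acts downstream of ATR, read 10.34, 9.98 and 10.21 in deficient arrays, against 9.50 and 9.85 in wild-type arrays (difference 0.50, SE 0.17, limma adjusted p = 0.182). Msh6, which recognises mismatched bases, read 11.29, 11.46 and 11.20 in deficient arrays, against 11.16 and 11.16 in wild-type arrays. Its arrays were separate by less than 0.1 log2 units and the difference was 0.15 (SE 0.12, limma adjusted p = 0.599).

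By class, the median difference was 0.51 over the 19 recombination genes (3 rose, 11 with all deficient arrays above both wild-type arrays), 0.44 over the 10 Fanconi genes (0 passed, 5 separate) and 0.46 over the 13 checkpoint genes (0 passed, 9 separate). Of all genes, 0.83% were called higher and 16.5% had all deficient arrays above both wild-type arrays. The classes were not tested against each other. On each deficient array the medians were close, from 0.47 to 0.48 for recombination, 0.32 to 0.48 for Fanconi and 0.34 to 0.43 for checkpoint genes relative to the wild-type mean. In wild-type arrays they ran from -0.19 to 0.19 for recombination, -0.08 to 0.08 for Fanconi and -0.09 to 0.09 for checkpoint genes. These wild-type values mirror each other around 0 by construction.

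Proliferation markers were also higher on average, to differing degrees. Of 11 measured markers, 11 means were higher, 3 rose (Mki67, Bub1 and Plk1) and 8 did not pass, with a median difference of 0.59. Of all genes, 48.1% had higher means and 0.83% were called higher. Bub1 differed by 1.31 and Mki67 by 1.11. Differences were small, with intervals that include 0, for Ccne1 (0.05), Pcna (0.10), Mcm5 (0.18) and Mcm2 (0.25), and the groups overlapped for Ccne1 and Pcna. The summed level of the 11 markers was 15.04 to 15.13 in deficient arrays, against 14.52 to 14.76 in wild-type arrays. The part of cycling cells in the differences of the repair genes was not tested. As measures of RNA quality, the signal of beta-actin at the 3′ end minus that at the 5′ end was 3.34 to 3.53 log2 units in deficient arrays, against 3.12 to 3.16 in wild-type arrays, and that of Gapdh was 4.45 to 4.87 in deficient arrays, against 4.57 to 4.71 in wild-type arrays. The 18S ribosomal RNA control read 10.37, 9.79 and 10.00 in deficient arrays, against 10.82 and 10.89 in wild-type arrays, so it was lower on every deficient array. The part of RNA quality was not tested.

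**Figure D4:**
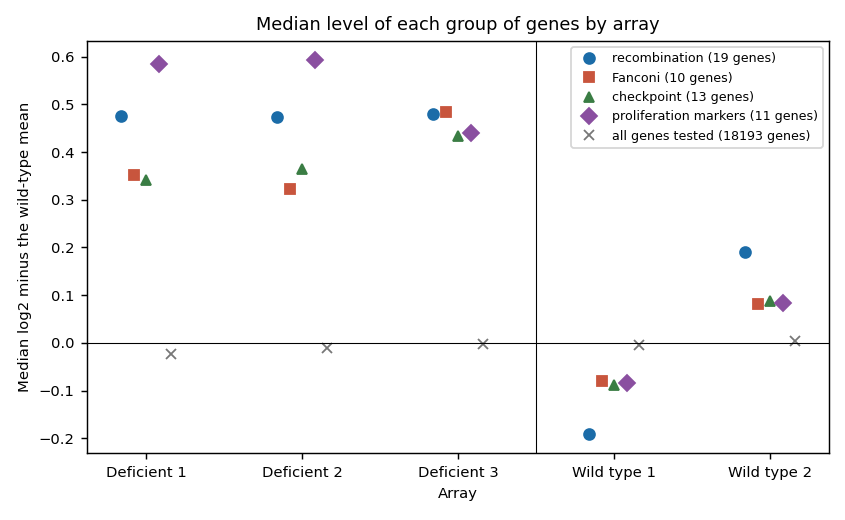
Median over the genes of each group of the log2 intensity on an array minus the wild-type mean, by array, with deficient arrays on the left. All 3 classes of repair and checkpoint genes and the proliferation markers lie above 0.3 on each deficient array, and between -0.2 and 0.2 on the wild-type arrays. The wild-type points mirror each other around 0 because their own mean is subtracted. The median of all genes runs from -0.02 to 0.00.

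Probe sets of the same gene often disagreed. Of the 43 genes, 17 had 1 probe set and 26 had several. For 30 of the 43 every probe set differed upward, but this count includes genes with 1 probe set, which cannot disagree. For 11 of the 26 genes with several, the probe sets went both ways. Of the 89 probe sets, 21 lay below the array median, where differences are compressed. All 4 probe sets of Brca1 differed upward, by 0.32 to 1.05, with separate groups on each. With the probe sets of each gene averaged, the difference was 0.60 for Brca1 (limma, adjusted p = 0.0486), 0.47 for Rad50 (adjusted p = 0.0762) and 0.87 for Rad54l (adjusted p = 0.0605). Rad54l read further apart on 2 other probe sets than on its brightest: 1423123_at differed by 1.18 (limma, adjusted p = 0.0912 over all probe sets) and 1423124_x_at by 1.31 (adjusted p = 0.0891). On 1423124_x_at Rad54l read 8.73, 9.33 and 8.56 in deficient arrays, against 7.59 and 7.53 in wild-type arrays.

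Rad52 went the other way on a dimmer probe set, 1426296_at, which read 5.90, 5.17 and 5.66 in deficient arrays, against 6.63 and 6.78 in wild-type arrays. There the difference was -1.13 (SE 0.22, limma adjusted p = 0.104), while its brightest probe set differed by -0.03. Atm differed by 0.57 on its brightest probe set and by -0.40 on 1421205_at, where deficient 3 read 7.31 and the other 2 deficient arrays 5.38 and 5.12. Hus1 differed by 0.71 and by -0.09 on its 2 probe sets, and Rad50 by 0.81 and 0.13, with the lower value from a probe set below the array median. The 3 probe sets of Chek1 above the median differed by 0.48 to 0.68. Which transcripts each probe set reads is not given in the sources used here.

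**Figure D5:**
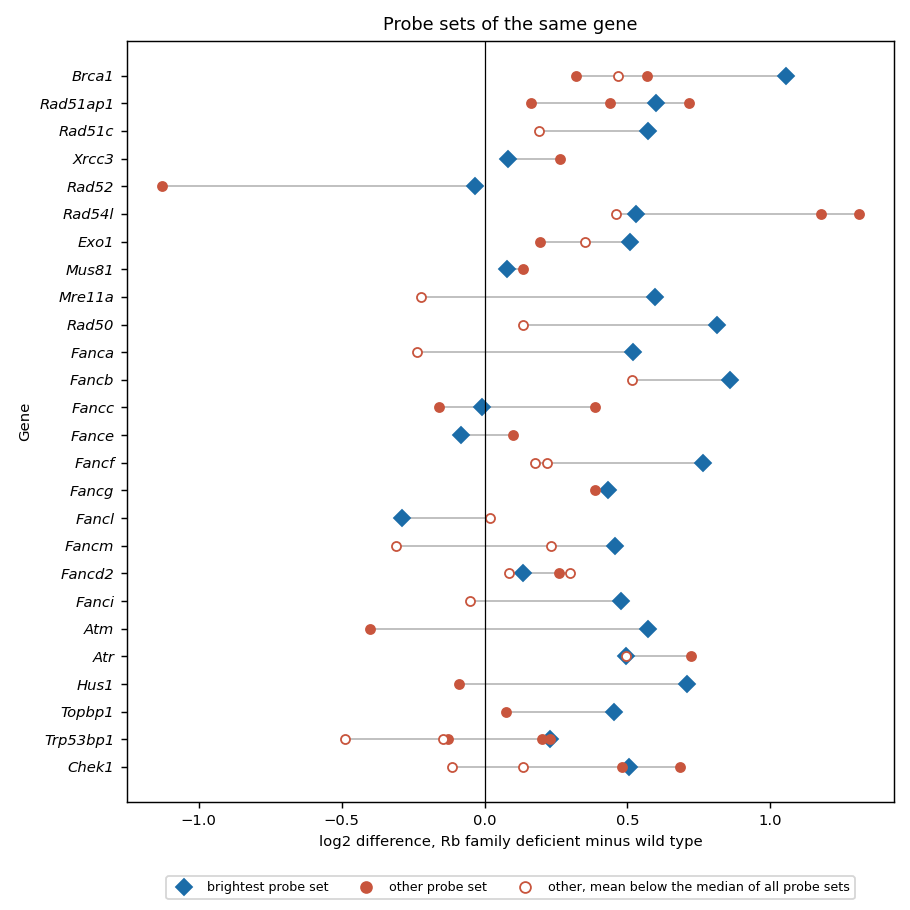
Log2 difference (deficient minus wild type) of every probe set of the 26 genes that have more than 1, with the brightest as diamonds, others as circles and those with a mean below the median of all probe sets as open circles. For 11 genes the points lie on both sides of 0, and both points of Rad52 lie below it, at -0.03 and -1.13.

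A wider list of genes of the same pathways was also read, and it was not tested against the 43. Of 57 listed genes, 49 matched a probe set. Of these, 37 means were higher and 12 lower, 1 rose, 0 fell in limma, and the median difference was 0.17. Of all genes, 48.1% had higher means and 0.83% were called higher. The gene that rose was Gen1, which encodes a nuclease that cuts Holliday junctions: it read 6.16, 5.87 and 5.95 in deficient arrays, against 4.93 and 5.04 in wild-type arrays (difference 1.01, SE 0.13, limma adjusted p = 0.0253 over genes and 0.0483 over all probe sets). Its other probe set, below the array median, differed by 0.22. Among 14 further checkpoint genes the median was 0.36, with 0.71 for Tipin (limma, adjusted p = 0.0753), a fork protection gene, and 0.47 for the kinase gene Wee1 (adjusted p = 0.0823). Among 7 further Fanconi genes the median was 0.14, with 0.43 for Usp1, whose product removes ubiquitin from FANCD2 (adjusted p = 0.116), and 0.29 for the core subunit gene Faap100 (adjusted p = 0.238). Over 16 further recombination genes it was 0.16. Over 4 further mismatch repair genes the highest differences were 0.43 for Mlh3 and 0.38 for Msh3, and 0 passed.

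End joining, the break repair route that needs no template, had a median difference of -0.35 over 8 measured genes. Of these, 3 means were higher, 5 were lower and 0 passed the threshold in limma. Without adjustment, 1 was higher and 3 were lower at p under 0.05 in the same fit, against 8.79% and 9.86% of all genes. Means were higher for 48.1% of all genes. Xrcc4, the partner of DNA ligase IV, read 6.93, 7.27 and 6.89 in deficient arrays, against 7.75 and 7.74 in wild-type arrays, a difference of -0.71 (SE 0.15, limma adjusted p = 0.0726). Its other probe set differed by -0.79. Xrcc6, which encodes the Ku70 subunit that binds DNA ends, differed by -0.50 (SE 0.12, adjusted p = 0.103), and its other probe set, below the array median, by -0.02. Xrcc5 and Prkdc, chosen after their values were seen, encode Ku80 and the catalytic subunit of the same DNA-dependent kinase. Xrcc5 differed by -0.42 (interval -0.76 to -0.08) and Prkdc by 0.65 (interval 0.26 to 1.05), with groups that did not overlap for either. Whether end joining genes differ from recombination genes in their response was not tested.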

How the data were processed

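Biotin-labelled RNA from sorted KLS cells was hybridised to Affymetrix arrays of the mouse genome (labels' protocols). The authors made the deposited intensity values, 1 per probe set and array, with RMA, per the submitters' processing notes; the software, its version and any part of the excluded array are not stated in what was used here. RMA sets arrays to a common distribution, which hides a shift of all transcripts, and it shrinks differences between dim probe sets. The deposited intensities ran from 6.96 to 31249 and log2 was taken here. Precision is limited by the number of arrays: 95% intervals of the 43 differences had a median half-width of 0.39.

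Groups came from the array titles. limma 3.58.1 in R 4.3.3 (lmFit, eBayes, two-sided, no covariate) was fitted to 45037 probe sets (64 AFFX controls left out) and to the brightest probe set of each of 18193 genes (the source of gene values). The Benjamini-Hochberg adjustment ran over each whole fit, with threshold 0.05 and no filter on low values. Platform annotation gave 34945 probe sets 1 symbol, 932 several and 9160 none; no gene was named from several. All members were named, with values on each array for those that passed and for the smallest p in each role; from pathway lists, genes that passed, or else the 2 with the smallest p, were named. Further values on each array (Bard1, Mre11a, Nbn, Rad54b, Fancb, Fancl, Chek1 and the dimmer probe sets of Rad54l, Rad52, Atm and Fancm), and the marker genes named, were chosen after they were seen. The members and lists were chosen with earlier results of these data known. The fit was tested on simulated data. Alternatives were other normalizations, filters, eBayes settings, array weights, a threshold of 0.1, a replicate block, the mean of all probe sets and each array left out.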

Additional observations from a re-analysis of the deposited data

Results flagged for a closer look

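A probe set annotated to both Rad54b and Fsbp (1456674_at), which is assigned to neither gene above, read 7.28, 6.61 and 6.81 in deficient arrays, against 6.23 and 6.51 in wild-type arrays. All 3 deficient arrays lay above both wild-type arrays, which is why it is listed here, with a log2 difference of 0.53 (limma, adjusted p = 0.358 over all probe sets). In the same fit another probe set with both symbols (1443318_at) differed by -0.01 and lay below the array median.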

How the results depend on the processing

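Brca1, Brca2 and Rad50 were the genes called in the fits with quantile normalization again, cyclic loess, median centring, no dim probe sets, probe sets _x_at and _s_at left out, a trend with intensity, a robust prior and array weights. When a gene's probe sets were averaged, Brca1 and Brca2 were called (2 genes), with Brca1 at 0.60 and Brca2 at 1.00; the differences of Atm, Hus1, Fanca, Fancf and Fancm became 0.08, 0.31, 0.14, 0.39 and 0.13. At an adjusted p under 0.1 the count was 7 (limma), adding Chek2, Hus1, Mdc1 and Rad51ap1, and 6 probe sets passed over all probe sets. The shares of all genes and of all probe sets under 0.1 were not counted, so these counts have no background. Over all probe sets 1 passed with median centring and 2 with an intensity trend, and 0 in the other fits; 0 genes and 0 probe sets were called lower in any. With 1 deficient array left out, 0 genes and 0 probe sets passed. With any 1 of the 5 arrays left out, the median difference of the 43 genes ran from 0.33 to 0.55. Over the other alternatives it ran from 0.31 (mean of all probe sets) to 0.49 (median centring). With the replicate number as a block, 0 genes passed (limma; median difference 0.48), with few degrees of freedom left. The labels do not say that a number pairs arrays, and deviations from the group means of same-numbered arrays correlated at -0.05 and -0.02 over probe sets, so the numbers were not taken as pairs.

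Directions turned for genes with differences of 0.29 or less in size, and the cause was not tested. Fancc read 0.0058 with median centring, 0.030 with array weights and 0.073 with probe sets averaged. Averaging gave 0.0083 for Fance and -0.017 for Trp53bp1. Rad17 read -0.017 with quantile normalization again and -0.035 with cyclic loess, and Xrcc3 read -0.048 with the replicate block. With 1 array left out, 35 of 43 genes kept their direction. The other 8 ran from -0.12 to 0.28 (Xrcc3), -0.35 to 0.29 (Rad52), -0.24 to 0.82 (Nbn), -0.20 to 0.13 (Fancc), -0.41 to 0.25 (Fance), -0.034 to 0.30 (Fancd2), -0.021 to 0.34 (Rad9a) and -0.12 to 0.078 (Rad17). The brightest probe sets of all 43 genes lay above the median of all probe sets. Averaging also took in dimmer probe sets, where the signal over background limits what can be read.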

Other observations

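A probe set annotated to both Atrip and Trex1 (1450672_a_at), assigned to neither, was lower in deficient cells. It read 8.48, 8.80 and 8.64 in deficient arrays, against 9.26 and 9.07 in wild-type arrays, a log2 difference of -0.53 (limma, adjusted p = 0.171 over all probe sets). The probe set annotated to Atrip alone differed by 0.26.

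Fancm had 3 probe sets in different directions. The brightest differed by 0.46, and 1457730_at, which lay below the array median, read 3.57, 3.54 and 3.64 in deficient arrays, against 4.03 and 3.76 in wild-type arrays (difference -0.31, limma adjusted p = 0.342 over all probe sets).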
